A study of Mustela putorius furo with 8 samples.

Results

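The data described here are single-cell transcriptomes of ferret pancreatic ductal epithelia, abbreviated PDE, between the last 2 sampled days of polarization. The members are the cells that the authors kept in their annotation and that came from the wild-type (WT) cultures sampled on day 7 or day 9, which makes 10050 of the 32945 cells kept in the series, 4634 from day 7 and 5416 from day 9. Primary pancreatic ductal cells had been isolated from newborn ferrets of 1 to 3 days of age, expanded for 10 passages and then grown on membranes at an air-liquid interface, where the upper face of the cell sheet meets air. WT and CFTR-knockout (CF) cultures were sampled on day 2, 5, 7 and 9 with no other treatment, and each genotype and day gave 1 droplet library. Each library held cells pooled from several animals, which were not told apart here. Day 7 and day 9 are separate samples, 1 library a side, so the comparison has no replicate check and no test. The question it addresses is what still changes in a WT epithelium late in its maturation.

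UMIs (unique molecular identifiers, 1 per captured transcript molecule) were summed over the cells of a library and scaled to counts per 1000000 UMIs (CPM). A gene was called higher or lower at a difference of at least 2-fold on the log2(CPM + 1) scale, which understates the change of low genes. Intervals are exact Poisson intervals for a CPM, exact conditional binomial intervals for a ratio and Clopper-Pearson intervals for a share, all at 95%, and they cover counting error only. The summed libraries held 82961927 UMIs on day 7 and 84781888 on day 9, and the median cell had 15898 and 14949 UMIs from 3776 and 3680 genes. Mitochondrial transcripts took a median of 10.7% and 10.3% of a cell's UMIs. The 2 libraries shared 9 cell barcodes, 0.194% of the day 7 cells and 0.166% of the day 9 cells.

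Duct epithelium lines the tubes that carry digestive enzymes out of the pancreas, secretes fluid rich in bicarbonate through CFTR and coats its surface with mucins. Mucous epithelia of the gut and airway also release trefoil peptides, which are stored and secreted with mucins, and antimicrobial proteins such as lactotransferrin. Centroacinar cells sit where the smallest ducts meet the enzyme-secreting acini. In culture, ductal cells that are plated as dividing progenitors polarize, leave the cell cycle and begin to secrete.

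The label of an epithelial culture held in both libraries. The duct keratins KRT19 and KRT7 stood at 4621 and 2216 CPM on day 7 and at 3772 and 2493 CPM on day 9. CFTR was detected at 15.9 and 29.5 CPM. Markers of other cells were low. The 8 annotated acinar enzyme genes summed to 0.687 and 1.62 CPM and none passed the filter on low values, with CPB1 and PNLIPRP1 at 0 UMIs in both libraries. Of 13 endocrine genes only ISL1 passed, at 19.9 and 19.3 CPM, and INS, GCG and PPY had 0 UMIs, where 0 counts in a library allow up to 3 UMIs. The 14 ciliated cell genes summed to 1.34 and 1.42 CPM, the 10 fibroblast and stellate genes to 4.75 and 5.79 CPM, the 8 endothelial genes to 0.157 and 0.106 CPM, the 6 tuft and neuroendocrine genes to 1.17 and 1.03 CPM and the 6 ionocyte genes to 16.5 and 15.3 CPM. The 10 annotated immune genes summed to 110 and 163 CPM, nearly all of it LCP1 at 98.2 and 148 CPM, while PTPRC, the marker of all leukocytes, had 0 UMIs. Among 3 red blood cell genes HBM stood at 39.6 and 47.6 CPM and ALAS2 at 0 UMIs.

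Across all genes the 2 libraries were close, with a Pearson r of 0.972 between their log2(CPM + 1) values. Of 7666 genes with a mean of at least 10 CPM, 107 were called higher on day 9, which is 1.40%, and 34 were called lower, which is 0.444%, so 1.84% were called in either direction. At a fold of 1.5 the shares were 6.03% higher and 2.97% lower. The median difference was 0.02, with quartiles of -0.18 and 0.23 on the log2 scale. The rises included the secreted proteins TFF1, LTF, WFDC2, MUC5AC, TFF2 and TFF3 and also CD74, ANKRD1 and FCMR, and the falls included LTB, IGFBP3, ID1, KRT5 and the cell cycle genes CENPF and RRM2. In CF cultures day 7 and day 9 are also 1 library each. Of the same 7666 genes, chosen by their WT levels with no filter on CF levels, 14 (0.183%) were called higher there and 4 (0.0522%) lower. The r between the CF libraries over these genes was 0.993. Genes low in WT are left out of these counts, and genes low in CF can hardly be called. The shares of the 2 genotypes are therefore not like for like. The WT and CF differences share no library, and their Pearson r across the 7666 genes was 0.260, given as a description because genes are not independent replicates.

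**Figure D1:**
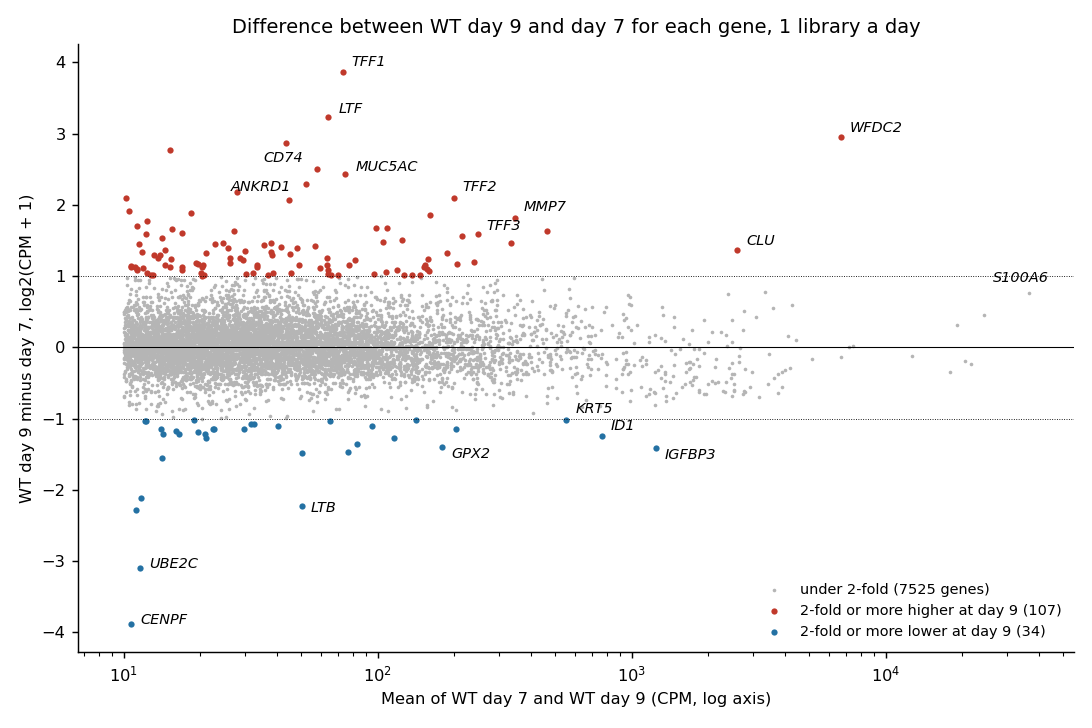
Each point is 1 of 7666 genes, with the mean CPM of WT day 7 and day 9 on a log axis and the log2 difference, day 9 minus day 7, on the other. The 107 genes called higher and the 34 called lower lie beyond the lines at 1 and -1, with TFF1 highest at 3.87 and CENPF lowest at -3.89.

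Trefoil peptides, small proteins that are secreted with mucus and protect epithelial surfaces, included the gene with the largest rise of all that passed. TFF1 had 700 UMIs on day 7 and 11621 on day 9, or 8.44 CPM (7.82 to 9.09) and 137 CPM (135 to 140), a ratio of 16.2 (15.1 to 17.6). TFF2 went from 74.7 to 324 CPM, a ratio of 4.34 (4.22 to 4.46). TFF3 went from 123 to 372 CPM, a ratio of 3.03 (2.97 to 3.10). All 3 members of the list were thus called higher, against 1.40% of all genes. Their median log2 difference was 2.10 against 0.02 over all genes. On day 2 the WT library held TFF1, TFF2 and TFF3 at 0.0175, 0.262 and 0.497 CPM and on day 5 at 1.33, 16.4 and 37.8 CPM, so each of the 3 stood higher in each later library. In CF cultures TFF1 stood at 52.3 and 110 CPM, a log2 difference of 1.06, while TFF2 and TFF3 differed by 0.64 and 0.25.

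Antimicrobial and secreted defence proteins formed the next group, with 4 of 9 measured genes called higher and 1 lower, against 1.40% and 0.444% of all genes. WFDC2, a secreted protein with whey acidic protein domains, went from 1532 CPM (1523 to 1540) to 11815 CPM (11792 to 11838), a ratio of 7.71 (7.67 to 7.76). Its rank among all genes moved from 104 to 8, and its share of all UMIs from 0.153% to 1.18%. LTF, the iron-binding lactotransferrin, went from 11.5 to 116 CPM, a ratio of 10.2 (9.50 to 10.9). PIGR, the receptor that carries polymeric immunoglobulins across epithelia, went from 12.6 to 36.6 CPM, and CLU, the secreted chaperone clusterin, from 1459 to 3746 CPM. S100A9, a subunit of calprotectin, was the member called lower, at 43.3 and 20.1 CPM. In CF cultures WFDC2 was at 95.3 and 271 CPM, a log2 difference of 1.5 from a level far under that of WT, and LTF was at 122 and 112 CPM, a difference of -0.13.

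Gel-forming and surface mucins moved less evenly. MUC5AC, a gel-forming mucin, went from 22.7 CPM (21.7 to 23.7) to 126 CPM (124 to 129), a ratio of 5.57 (5.30 to 5.85), and the membrane mucin MUC16 from 145 to 334 CPM. The other 4 mucins that passed the filter were not called, among them MUC1 at 724 and 1206 CPM, MUC5B at 35.3 and 56.4 CPM and MUC4 at 77.8 and 103 CPM. Of 12 genes of goblet cell secretion 3 were called higher, against 1.40% of all genes, and none lower, with a median of 0.57. These were the sialyltransferases ST3GAL1, at 8.57 and 20.3 CPM, and ST6GALNAC1, with a log2 difference of 1.05, and CLCA1, a protein secreted by goblet cells, at 1.08. AGR2, a disulfide isomerase needed for mucin folding, lay just under the call at 68.5 and 138 CPM. SPDEF, a transcription factor of goblet cells, stood at 17.1 and 15.6 CPM. BPIFB1, a secreted protein of upper airway glands, was the 1 of 3 measured secretoglobin and BPIF genes that was called, at 13.8 and 37.8 CPM.

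CF levels are given for 3 of these mucins, of which only MUC5AC was called higher in WT. MUC5AC stood at 47.0 and 45.9 CPM in the CF libraries, MUC1 at 502 and 412 CPM and MUC4 at 16.6 and 9.80 CPM, so none of these 3 was called higher there.

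The lists of anion and fluid transport and of sodium absorption held 1 call each, where 1.84% of all genes were called. Their medians were 0.22 and 0.12, against 0.02 over all genes. CFTR, the chloride and bicarbonate channel, had 1315 and 2498 UMIs, or 15.9 CPM (15 to 16.7) and 29.5 CPM (28.3 to 30.6), a ratio of 1.86 (1.74 to 1.99) that missed the 2-fold call. None of the 9 measured genes of anion and fluid transport was called higher, against 1.40% of all genes. The water and glycerol channel AQP3 was the 1 called lower, against 0.444% of all genes, at 165 and 67.9 CPM. SLC12A2, the basolateral cotransporter that loads chloride into the cell, stood at 213 and 364 CPM. Among 12 genes of sodium absorption only SCNN1A, the alpha subunit of the epithelial sodium channel, was called, at 95 and 209 CPM, and ATP1B3, a subunit of the sodium pump, stood at 184 and 119 CPM. In CF libraries SCNN1A was at 81.8 and 66.1 CPM.

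Other rises had no single theme. CD74, the invariant chain of class II histocompatibility molecules, went from 16.7 to 99.1 CPM, a ratio of 5.93 (5.61 to 6.29). ANKRD1, a nuclear protein and target of YAP signalling, went from 17.2 to 87.6 CPM, although it had been at 64.4 CPM on day 5. EDN1, the peptide endothelin-1, went from 69.2 to 254 CPM, PTGER4, a receptor for prostaglandin E2, from 64.6 to 186 CPM, and FCMR, the Fc receptor for IgM, from 16.7 to 73.1 CPM. PRAP1, a secreted acidic protein, went from 46.4 to 150 CPM and was at 0.288 and 0.640 CPM in the CF libraries. NMT1, which attaches myristate to proteins, went from 54.7 to 155 CPM, with 101 and 86.3 CPM in CF. Of the genes without a symbol the largest rise was that of LOC123388620, annotated as a ribosomal RNA gene, at 9.75 and 77.4 CPM, and the next 4 included LOC101690256 at 227 and 706 CPM.

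Matrix and cytoskeletal genes included MMP7, the protease matrilysin of duct and gland epithelia. It went from 153 CPM (150 to 156) to 539 CPM (534 to 544), a ratio of 3.52 (3.45 to 3.59), and from 167 to 513 CPM in CF, so that its log2 differences of 1.81 and 1.61 were close. Among 9 matricellular and protease genes MMP7, PLAT and SPP1 were called higher, against 1.40% of all genes, with PLAT, the tissue plasminogen activator, at 18.8 and 52.8 CPM and SPP1, osteopontin, at 83.5 and 170 CPM. LAMA3, a laminin chain of the basement membrane, was called at 97.1 and 196 CPM, and the median of the 13 genes of laminins and integrins was 0.35. Of 14 contractile and mesenchymal genes TAGLN, an actin-binding protein, went from 107 to 268 CPM, after 242 CPM on day 5, and S100A4, a calcium-binding protein, from 126 to 286 CPM. Within ductal cluster 2, which went from 52 to 321 cells and held 39.8% of TAGLN UMIs on day 9, TAGLN stood at 1545 and 1629 CPM. Over the 19 clusters with at least 20 cells on each day it was at least 2-fold higher in 12, with at most 10 UMIs on day 7 in 10 of the 19. The other 12 contractile and mesenchymal genes were not called and none of the 4 collagens was, where 1.84% of all genes were called.

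Among genes with a mean of at least 30 CPM, the largest fall was that of LTB, lymphotoxin beta, a membrane cytokine of the tumour necrosis factor family. It had 6945 UMIs on day 7 and 1448 on day 9, or 83.7 CPM (81.8 to 85.7) and 17.1 CPM (16.2 to 18.0), a ratio of 0.204 (0.193 to 0.216). Its WT course was uneven, with 80.8 CPM on day 2 and 13 CPM on day 5, so that day 7 stood apart from day 5 as much as from day 9. In CF the direction was opposite, from 23.3 to 67.6 CPM. IGFBP3, which binds insulin-like growth factors, went from 1806 to 678 CPM, a ratio of 0.376 (0.372 to 0.379), after 1011 CPM on day 5, and stood at 947 CPM in both CF libraries.

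KRT5, a keratin of basal epithelial cells, went from 739 CPM (733 to 745) to 364 CPM (360 to 368), a ratio of 0.493 (0.486 to 0.500). TP63, the transcription factor of basal cells, stood at 58.7 and 29.4 CPM and KRT15, another basal keratin, at 34.1 and 16.8 CPM, both just short of the call. All 7 measured members of the basal and squamous list had a difference below 0, against 3639 of all 7666 genes. Their median was -0.33, and 1 was called lower, against 0.444% of all genes. FERMT1, which activates integrins at the basal surface, went from 119 to 46.3 CPM. In CF, KRT5 stood at 647 and 370 CPM and TP63 at 101 and 60.8 CPM, log2 differences of -0.80 and -0.72.

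Among the genes of BMP signalling ID1 was called lower. The ID genes encode inhibitors of basic helix-loop-helix factors and are target genes of BMP signalling. ID1 went from 1070 to 453 CPM, a ratio of 0.424 (0.419 to 0.429). It was the 1 of 11 measured BMP pathway genes past the call, where 0.444% of all genes were called lower. ID3 stood at 1244 and 732 CPM and ID2 at 263 and 142 CPM, with ID4 at a log2 difference of -0.44 and FST, an extracellular inhibitor of activins, at -0.86. The median of the list was -0.40. BMP3, a ligand of the family, stood at 22.9 and 32.1 CPM. The CF differences were -0.37 for ID1 and -0.23 for ID3. None of 11 WNT genes, 8 Notch genes and 11 EGF family genes was called, where 1.84% of all genes were, with medians of 0.14, 0.03 and 0.27, and the Notch ligand DLL1 came nearest at 50 and 25.2 CPM.

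A few genes of cell division were called lower on day 9. CENPF, a kinetochore protein made before mitosis, had 1733 UMIs on day 7 and 40 on day 9, or 20.9 and 0.472 CPM, a ratio of 0.0226 (0.0161 to 0.0309). UBE2C, which marks mitotic proteins for degradation, went from 21.6 to 1.64 CPM. RRM2, which makes nucleotides for DNA synthesis, went from 19.6 to 3.76 CPM. Over the 19 clusters with at least 20 cells on each day RRM2 was lower in 9 and higher in 10. It differed by 0.07 with their cluster shares held at those of day 7. These values say little about its fall, since RRM2 had at most 10 UMIs in 12 of the 19 on day 7 and in 14 on day 9. The 19 also leave out clusters 31 and 27, with 50 and 58 cells on day 7 and 1 each on day 9. Among clusters of at least 50 cells on day 7 RRM2 was highest in cluster 31, at 335 CPM. Of the cell cycle genes that passed the filter, 2 of 6 in the G2/M list and 2 of 9 in the S phase list were called lower, against 0.444% of all genes, and none higher. In the S phase list 8 of 9 members and in the G2/M list 6 of 6 were below 0, against 3639 of all 7666 genes. The medians of these lists were -0.80 and -0.85. The highest member of each was GMNN, an inhibitor of DNA replication licensing, at 195 and 197 CPM, and PLK1, a mitotic kinase, at 16.8 and 15.9 CPM. The 7 proliferation markers, MKI67 and TOP2A among them, were too low to pass and summed to 46.3 CPM on day 7 and 2.55 CPM on day 9, with TOP2A at 1206 and 81 UMIs and MKI67 at 590 and 28 UMIs. The cluster named proliferating ductal, led by CENPF and CCNB1, had 58 cells on day 7 and 1 on day 9. With each class given its day 7 share on both days, where that 1 cell stands for the proliferating ductal class of day 9, CENPF differed by 0.34. CDKN1A, an inhibitor of cyclin-dependent kinases, stood at 644 and 908 CPM.

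Several genes of other kinds were called lower too, among them TMEM229A, a membrane protein, at 74.7 and 26.0 CPM, and NRN1, the surface protein neuritin, at 87.2 and 42.1 CPM. UPK3BL2, a uroplakin-like membrane protein, was another, at 189 and 92.5 CPM. With cluster shares held at those of day 7, over 19 clusters, it differed by 0.62. Within these 19 it was lower in 13 and higher in 6, with a median of -0.58, and at least 2-fold lower in 4 and higher in 3. Redox and metabolic genes held a few further calls. GPX2, the glutathione peroxidase of epithelia, went from 259 to 98.0 CPM, PRXL2A, a peroxiredoxin-like protein, from 113 to 40.2 CPM, and G0S2, an inhibitor of fat breakdown, from 130 to 60.1 CPM. FMO2, a flavin monooxygenase, went the other way at 7.64 and 20.2 CPM, and CPT1A, which brings fatty acids into mitochondria, went from 47.3 to 107 CPM. None of 21 glycolysis genes and none of 32 nuclear genes of the respiratory chain was called, where 1.84% of all genes were. Of them 16 and 27 were below 0, against 3639 of all 7666 genes, with medians of -0.32 and -0.21. GAPDH stood at 1032 and 697 CPM. Among 13 protein genes of the mitochondrial genome ND4L and ATP8 were called higher, against 1.40% of all genes. ND4L stood at 93.2 and 222 CPM and ATP8 at 48.7 and 115 CPM. Both overlap neighbouring mitochondrial genes and so have uncertain counts. The median of the 13 was -0.01.

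Counts of calls in the stress and inflammatory lists are given beside the 1.84% of all genes called. None of 18 NF-kB targets was called, with NFKBIA at 1426 and 907 CPM and ICAM1 at 184 and 334 CPM. ISG20 and MX2 were the 2 of 16 interferon-stimulated genes that were called higher, ISG20 at 19.8 and 55.9 CPM, against 1.40% of all genes. Of 20 immediate early genes only NR4A1 was called, at 36.8 and 89.7 CPM, and IER3 stood at 2502 and 1773 CPM. None of 20 genes of protein folding in the endoplasmic reticulum, 9 heat shock genes, 20 junction genes, 8 pancreatic and 18 epithelial transcription factors was called. S100A6, the most abundant member of its family, stood at 27227 and 46216 CPM, below the call.

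Ribosomal protein genes took less of the library on day 9. The 76 genes that passed had a median log2 difference of -0.47, and 61 of them were below 0, against 3639 of all 7666 genes. Only RPL14 was called lower, against 0.444% of all genes. It stood at 282 and 126 CPM after 126 CPM on day 5, so day 9 was back at the day 5 level. RPS29 stood at 2467 and 4233 CPM. Their share of all UMIs had been 20.7% on day 2, 16% on day 5 and 15.2% on day 7 and was 12.1% on day 9, with 14.3% and 13% in the CF libraries of day 7 and day 9. Reads of ribosomal protein genes can be divided among near-identical copies, so values of single members are uncertain.

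**Figure D2:**
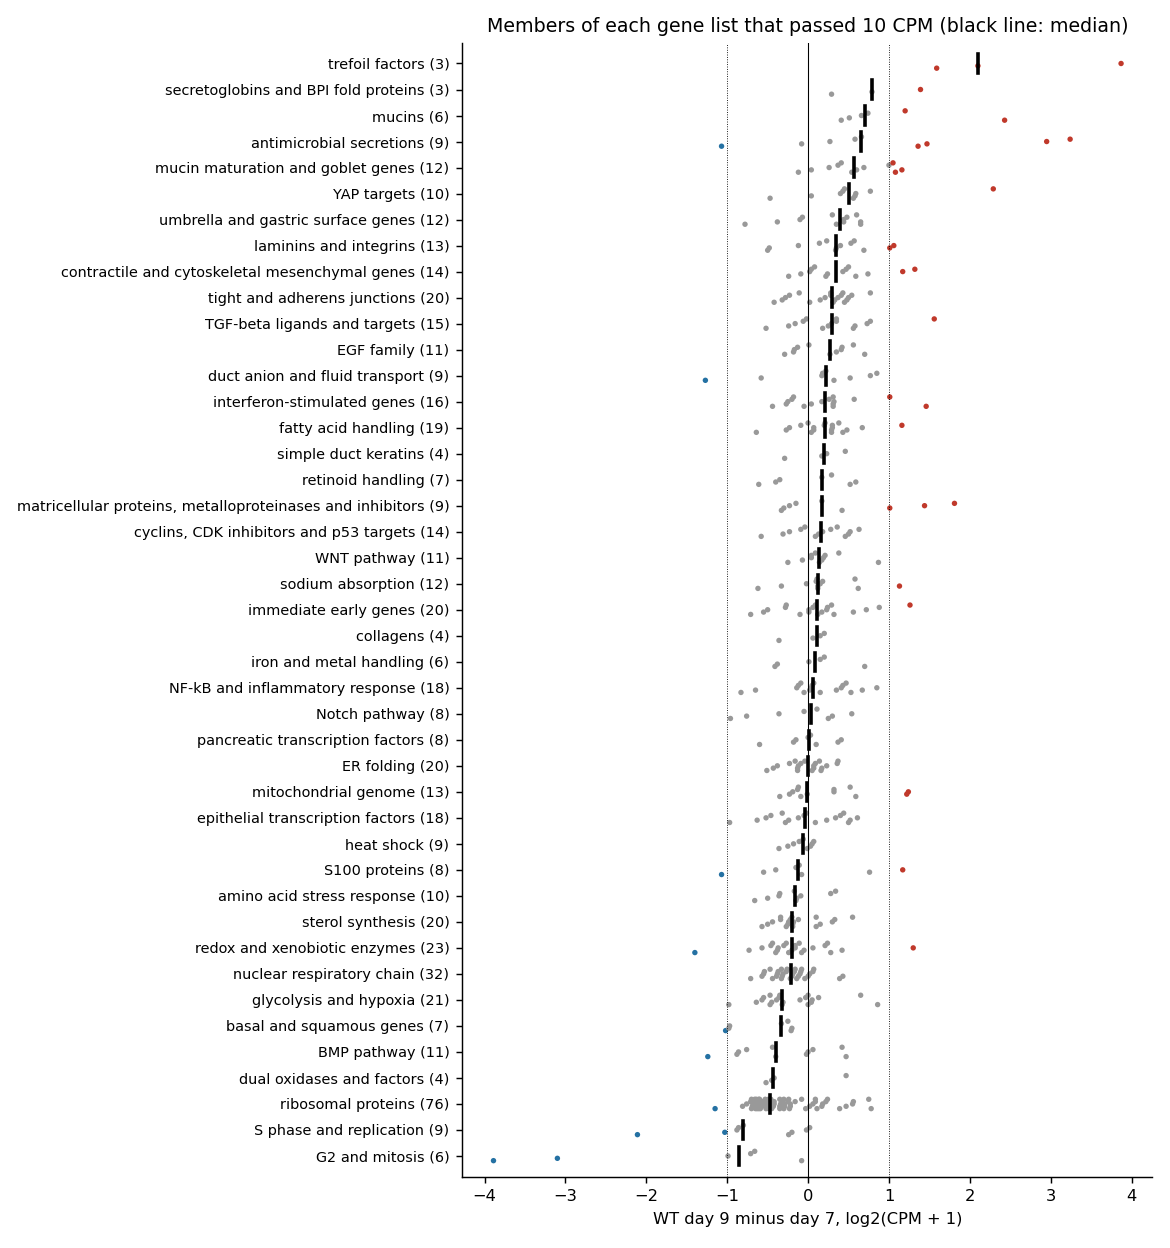
Each row is a gene list, with the number of members that passed the filter in brackets, and each point is 1 such member at its difference on the log2(CPM + 1) scale, WT day 9 minus day 7, with the list's median as a black line and called members coloured. Trefoil peptides have a median of 2.10 and all lie right of the line at 1, while the basal, BMP, S phase, G2/M and ribosomal protein lists have medians of -0.33, -0.40, -0.80, -0.85 and -0.47.

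Cell classes shifted too, and over all cells the progenitor class had a lower share on day 9 although its markers had a positive median difference. The authors had named each cluster of WT cells after the published cell state that its average expression correlated with best. Cells in clusters named centroacinar made up 16.9% of day 7 (781 cells) and 43.6% of day 9 (2361 cells), a difference of 26.7 percentage points (24.3 to 29.1). Ductal cells went from 50.7% to 39.7% (2350 and 2152 cells), and centroacinar progenitor cells from 30.9% to 16.6% (1430 and 900 cells). Among cells with at most 10% mitochondrial UMIs, of which there were fewer, the progenitor share turned, from 10.4% to 17.6%, with 75.5% and 50.3% ductal and 12.3% and 32.1% centroacinar. Proliferating ductal cells numbered 58 on day 7 and 1 on day 9, and proliferating acinar cells 12 and 1. The class markers that the study names were chosen on these libraries, so they are not independent of the classes. Of its 6 ductal markers 1, KRT5, was called lower and none higher, with a median of -0.58, whereas 1 of 5 centroacinar markers, S100A4, and 3 of 11 progenitor markers were called higher, with medians of 0.65 and 0.51, and none was called lower, where 1.40% of all genes were called higher and 0.444% lower.

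A shift by name need not be a shift by cluster, and the clusters turned over more than the names. Among 29 of the 41 WT clusters with at least 20 cells over both days, 6 drew at least 90% of these cells from day 9 and 5 drew at most 10% from it, where 53.9% of all the cells were from day 9. Cluster 14, ductal and led by LTB, had 579 cells on day 7 and 29 on day 9, and ductal cluster 0, led by PRRX2 and NRN1, had 524 and 14. Cluster 3, centroacinar, with FCMR, WFDC2 and PIGR among its leading genes, had 29 cells on day 7 and 965 on day 9. Ductal cluster 8, led by FILIP1L, PLA2G7 and PDGFB, had 8 and 801, centroacinar cluster 7, with HSPB8, WFDC2 and EDN1, had 47 and 458, and progenitor cluster 21, with CD74 and PLAT, had 33 and 418. Ductal cluster 17, whose leading genes included TFF2, TFF1, BPIFB1 and LTF, was present on both days with 161 and 406 cells. The clusters were made without batch correction, so a cluster that is mostly of 1 library may be that library rather than a cell type, and maturation and library cannot be told apart.

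**Figure D3:**
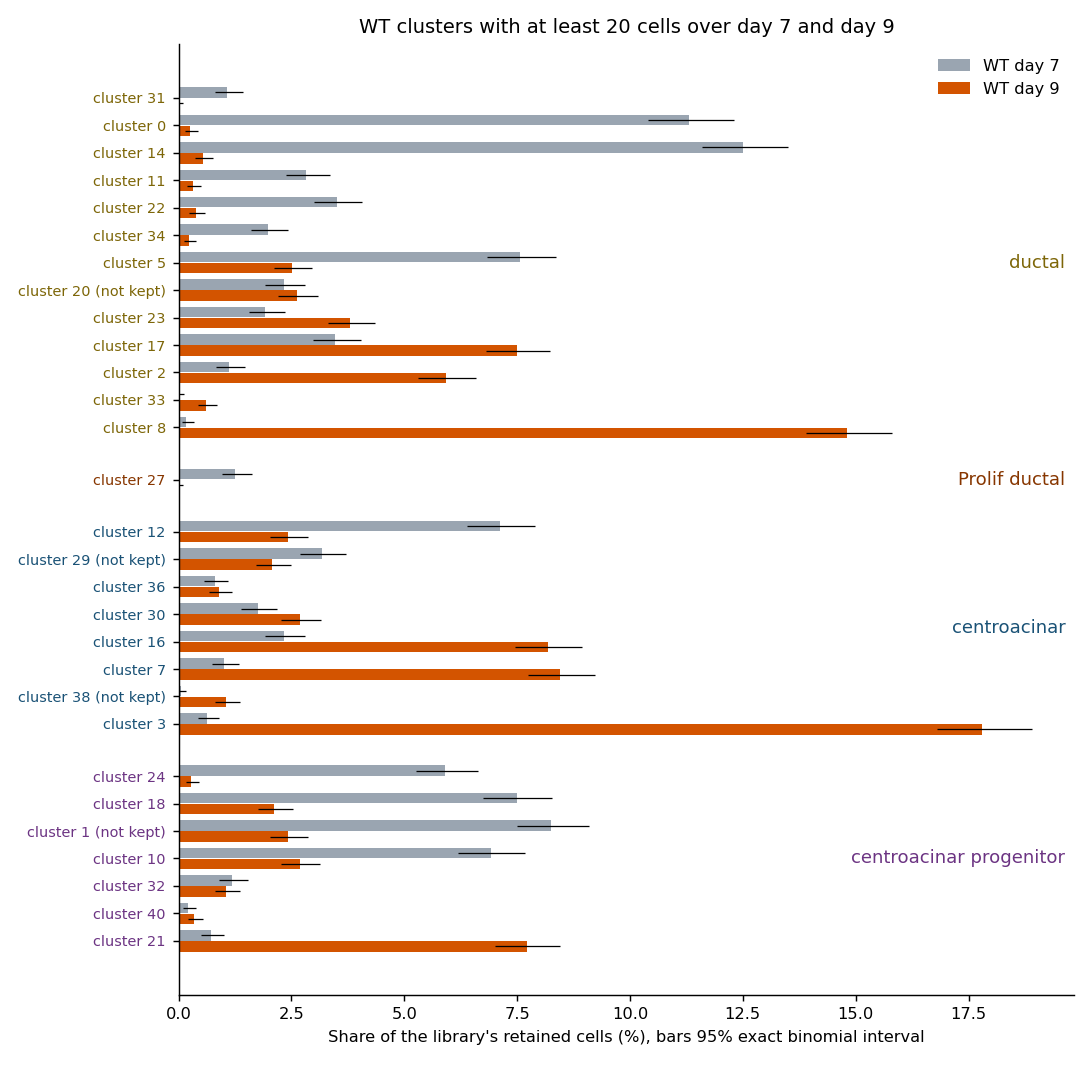
Each pair of bars is 1 cluster of WT cells, with the percentage of day 7 and of day 9 cells it held and its 95% exact binomial interval, grouped by the authors' class name; clusters marked not kept were left out of the values within a class. Cluster 3 rises from 0.626% to 17.8% and cluster 8 from 0.173% to 14.8%, while cluster 14 goes from 12.5% to 0.535% and cluster 0 from 11.3% to 0.258%.

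Levels within a class were compared next, over clusters whose leading genes did not go against their name and whose depth was not low. These clusters held 2232 ductal cells on day 7, mostly from clusters 14, 0 and 5, and 2001 on day 9, mostly from clusters 8, 17 and 2. They held 632 and 2192 centroacinar cells, mostly from clusters 12 and 16 on day 7 and from 3, 7 and 16 on day 9, and 1047 and 769 progenitor cells, mostly from clusters 18, 10 and 24 and then from 21. Within ductal, centroacinar and progenitor cells 123, 227 and 77 genes were called higher, or 1.59%, 3.01% and 1.07% of the genes that passed there. Those called lower numbered 26, 214 and 13, or 0.336%, 2.83% and 0.181%. The centroacinar values rest on 11645622 UMIs on day 7 and 34709892 on day 9. Of the 107 genes called higher over all cells, 72, 74 and 55 were at least 2-fold higher within each class, and of the 34 called lower, 19, 30 and 6 were at least 2-fold lower. These counts are descriptions, since the classes were cut from the same cells and genes.

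WFDC2 and TFF1 were higher on day 9 within each class. WFDC2 went from 72.5 to 317 CPM in ductal cells, from 1555 to 19877 CPM in centroacinar cells and from 4719 to 21884 CPM in progenitor cells. TFF1 went from 13.4 to 280 CPM in ductal cells, from 5.24 to 33.0 CPM in centroacinar cells and from 0.567 to 43.6 CPM in progenitor cells. The low day 7 levels of TFF1 rest on few UMIs, with at most 10 in 16 of the 19 clusters with at least 20 cells on each day. TFF2 went from 115 to 677 CPM in ductal cells and from 4.87 to 36.5 CPM in progenitor cells, and stood at 87.8 and 91.1 CPM in centroacinar cells. CD74 was highest in progenitor cells, with 46.8 and 359 CPM there against 2.06 and 9.62 CPM in ductal cells. Among the falls, IGFBP3 went from 2286 to 220 CPM and KRT5 from 536 to 83.6 CPM in centroacinar cells, while in ductal cells IGFBP3 stood at 2691 and 1433 CPM and KRT5 at 1220 and 803 CPM, under the call. CFTR stood at 13.1 and 24.4 CPM in ductal cells, 24.8 and 35.6 CPM in centroacinar cells and 19.7 and 25.9 CPM in progenitor cells, not called in any of the 3.

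WT cells also divided by SOX2, a transcription factor of foregut and stem cells. In 12 clusters the summed SOX2 level was at most 4.87 CPM and in 29 it was at least 50.6 CPM. This division was made after the values were seen and is not a group of the study. SOX2-low clusters held 27.5% of day 7 cells and 27.9% of day 9 cells, and SOX2 itself stood at 69.8 and 88.8 CPM over all cells against 0.0864 and 0.0200 CPM in the CF libraries. The sets held different clusters on each day. SOX2-low cells came mostly from clusters 0, 22, 17 and 11 on day 7 and from 8 and 17 on day 9, with 524 and 14 cells in cluster 0 and 8 and 801 in cluster 8. SOX2-high cells held clusters 14 and 3, with 579 and 29 and with 29 and 965 cells. Within SOX2-low cells 230 genes (3.01%) were called higher and 95 (1.25%) lower, and within SOX2-high cells 93 (1.23%) and 32 (0.422%). MUC5AC went from 9.47 to 156 CPM in SOX2-low and from 29.6 to 113 CPM in SOX2-high cells, TFF3 from 50 to 418 CPM and from 161 to 352 CPM, and ANKRD1 from 2.31 to 76.7 CPM and from 25 to 92.4 CPM. CFTR went from 9.43 to 25.9 CPM in SOX2-low cells and stood at 19.2 and 31.0 CPM in SOX2-high cells. FCMR stood at 5.10 and 9.61 CPM in SOX2-low cells and went from 22.8 to 101 CPM in SOX2-high cells. LTB took opposite directions, from 8.32 to 20.4 CPM in SOX2-low and from 123 to 15.6 CPM in SOX2-high cells. The median log2 difference of the contractile list was 1.16 in SOX2-low and -0.08 in SOX2-high cells. No difference between the SOX2 groups was tested.

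**Figure D4:**
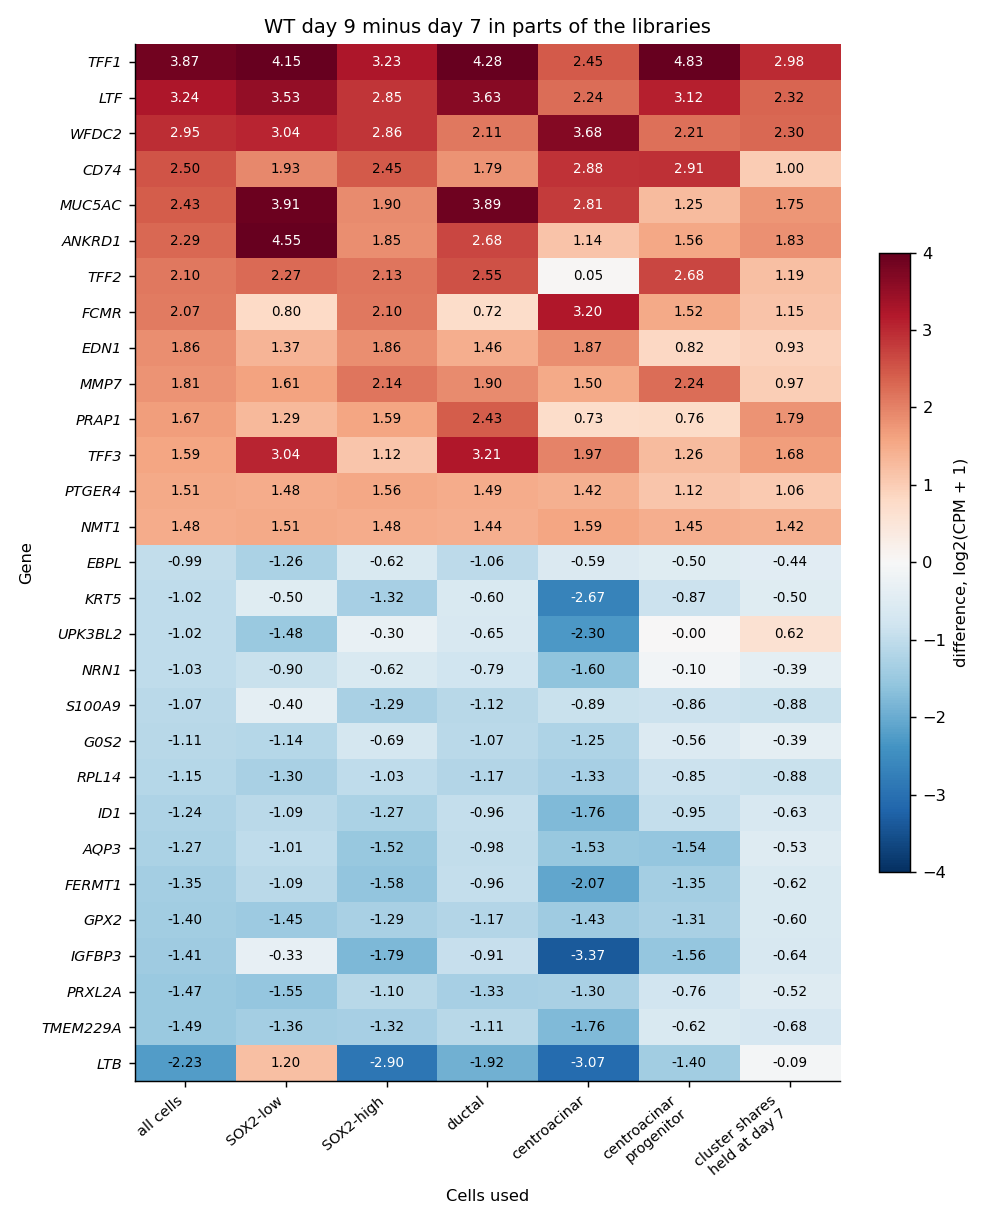
Each row is a named gene and each column a set of WT cells, with the colour and the printed value giving the difference on the log2(CPM + 1) scale, day 9 minus day 7; the last column holds cluster shares at those of day 7. TFF1 and WFDC2 are above 1 in every set, LTB is 1.20 in SOX2-low and -2.90 in SOX2-high cells, and IGFBP3 is -3.37 in centroacinar cells and -0.33 in SOX2-low cells.

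Single clusters showed how broad each change was. There were 19 clusters with at least 20 cells on each day, holding 73.8% of day 7 and 81.8% of day 9 cells. Of the 107 genes called higher 32 were higher in all 19 clusters, as were 2.00% of all 7666 genes, and of the 34 called lower 5 were lower in all 19, as were 1.11% of all genes. Only 6 genes were at least 2-fold higher in 15 or more clusters, which were WFDC2 and NMT1 in 19 each, TFF1 in 17, SELENOK in 16, and POLR2K and LOC123388620 in 15 each, and no gene was 2-fold lower in as many. EDN1, MMP7 and PRAP1 were higher, and GPX2, ID1, ID3 and RPL14 lower, in every one of the 19. Some of these differences were near 0. The smallest were 0.12, 0.07 and 0.01 for EDN1, MMP7 and PRAP1. For GPX2, ID1, ID3 and RPL14 they were -0.01, -0.06, -0.04 and -0.54. CFTR was higher in 18 of them, TP63 lower in 18 and KRT5 lower in 17. With each of the 19 clusters given its day 7 share of cells on both days, 49 genes were called higher and 1 lower, and 39 of the 49 were among the 107, while 0 of the 34 kept their call. In that reckoning TFF1, LTF and WFDC2 kept differences of 2.98, 2.32 and 2.30, while LTB stood at -0.09 and UPK3BL2 at 0.62. It leaves out the clusters with under 20 cells on either day.

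Several genes were concentrated in 1 cluster, and both the number of cells in it and the level within it are given here. Cluster 14 held 75.1% of all LTB UMIs of day 7, and LTB stood at 558 CPM on day 7 and 580 CPM on day 9 within it, from 579 and 29 cells. Over the 19 clusters LTB was lower in 13 and at least 2-fold lower in 9, with a median difference of -0.84. CD74 stood at 654 and 618 CPM within cluster 21, which had 33 and 418 cells and held 24.1% and 44.7% of CD74 UMIs, and it was at least 2-fold higher in 14 of the 19 clusters, for example at 59.4 and 209 CPM in cluster 16. IGFBP3 stood at 6320 and 4251 CPM and KRT5 at 1943 and 1332 CPM within cluster 14, which held 39.4% and 29.6% of their UMIs on day 7.

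TFF1, TFF2 and LTF differed within cluster 17 as well as by its size. TFF1 stood at 186 and 1398 CPM within cluster 17, which held 75% of TFF1 UMIs on day 7 and 77.9% on day 9, and LTF at 181 and 891 CPM, with 53.7% and 58.6% of its UMIs there. TFF2 stood at 1621 and 3364 CPM in the same cluster. TFF3 stood at 1048 and 3303 CPM within progenitor cluster 18, which held 55.1% and 17.0% of its UMIs, and at 194 and 1449 CPM within cluster 17, and it was at least 2-fold higher in 12 of the 19 clusters and at least 2-fold lower in 3. Outside it TFF1 was sparse, with at most 10 UMIs on day 7 in 16 of the 19 clusters, so its folds there rest on few counts, and free RNA and low expression cannot be told apart. MUC5AC stood at 179 and 534 CPM within progenitor cluster 18, which held 51.0% and 8.12% of its UMIs, and at 76.5 and 526 CPM within cluster 17, which held 11.5% and 31.8%. WFDC2 ranged from 21.2 to 6480 CPM over clusters with at least 50 cells on day 7, with a median of 69.9 CPM. Over those with at least 50 cells on day 9 it ranged from 206 to 28765 CPM, with a median of 5850 CPM. These 2 medians are over different clusters, 21 on day 7 and 18 on day 9. Within the 19 clusters with at least 20 cells on each day the median log2 difference of WFDC2 was 2.37, with a range of 1.11 to 3.95.

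Shares of cells with a UMI were compared after each cell was thinned to 3000 UMIs, which left 4561 day 7 and 5280 day 9 cells and set the shallower cells aside. WFDC2 was found in 26.3% of day 7 and 67.7% of day 9 cells, and in 53.6% and 95% before thinning. Over clusters of at least 50 cells the lowest thinned share was 5.17% on day 7, in cluster 27, and 38.9% on day 9, in cluster 8. These are different cells, and free RNA and low expression cannot be told apart at such shares. The 10% of cells with the most WFDC2 held 92.5% of its UMIs on day 7 and 54.9% on day 9. The thinned share of cells with TFF1 was 1.05% and 6.69%, with LTF 1.93% and 9.47%, with CD74 3.44% and 16.4%, with MMP7 16.2% and 43.4% and with NMT1 14.7% and 37.0%. It was 53.1% and 33.0% for KRT5, 68.9% and 46.8% for ID1, 62.7% and 39.3% for IGFBP3 and 7.87% and 2.78% for LTB.

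The whole WT course shows which late changes continued an earlier one. TFF1, TFF2, TFF3, LTF and MUC5AC stood higher in each later library, MUC5AC at 0.262, 12.6, 22.7 and 126 CPM. WFDC2 stood at 128, 1629, 1532 and 11815 CPM, so its late rise followed a level stretch. GPX2, at 778, 285, 259 and 98.0 CPM, PRXL2A, at 248, 176, 113 and 40.2 CPM, and AQP3, at 376, 194, 165 and 67.9 CPM, stood lower in each later library. KRT5, at 1077, 626, 739 and 364 CPM, ID1, at 729, 1080, 1070 and 453 CPM, and IGFBP3, at 1927, 1011, 1806 and 678 CPM, did not. Neighbouring days share a library, so only the levels are given.

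The authors had also placed WT cells on 15 lineages of pseudotime, a score that orders cells along a path of gradual change in expression. The median pseudotime was higher on day 9 in 8 lineages and lower in 7, although lineages 9, 11, 12 and 14 held only 4, 3, 4 and 2 cells on day 9. Lineage 7 held 18.9% of day 7 and 47.0% of day 9 cells, with medians of 48.1 and 55.8, and lineage 5 held 19.3% and 41.4%, with medians of 47.4 and 56.0. Lineage 2 held 31.4% of day 7 cells and 2.86% of day 9 cells. In lineage 1 the median was 55.6 on day 7 and 44.1 on day 9. The order was computed from the same cells, so it is a description of where the 2 libraries lie.

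Gene length moved with the difference. Over 7664 genes with an annotated span, the Spearman correlation of the span with the log2 difference was 0.313, and the medians of 5 equal groups from short to long were -0.16, -0.04, 0.02, 0.08 and 0.13. Of the 1533 genes in the shortest group 26 were called higher and 22 (1.44%) lower. Of the 1533 in the longest group 20 were called higher and 1 (0.0652%) lower. Over all genes 1.40% were called higher and 0.444% lower. The shortest and longest groups thus differed mostly in genes called lower. The part of span in any named result was not tested. The annotation table used here names no chromosome for these genes, so no positions are given.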

How the data were processed

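Single-cell RNA was measured in 8 libraries, 1 for each of 2 genotypes and 4 days, and 6 are used here, the 4 WT libraries and CF day 7 and day 9. The authors processed reads with Cell Ranger 5.0.1 and clustered cells with Seurat in R 4.1.2, per the submitters' notes, against the ferret assembly ASM1176430v1.1 with an improved annotation. They deposited whole UMI counts per gene and cell. They set a minimum of 200 genes and a ceiling of 20% mitochondrial UMIs for a cell, removed doublets with DoubletFinder, merged libraries without batch correction and named clusters with clustifyr. The deposited annotation gives library, cluster, class and the percent of mitochondrial UMIs of each cell, and the deposited pseudotime score comes from slingshot. The deposited table of normalized values and the day 2 and day 5 CF matrices were not used here.

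Counts were summed per library, cluster or class over the retained cells and divided by their total to give CPM. Genes with a mean of at least 10 CPM over both libraries were compared on log2(CPM + 1), and a call is a difference of at least 2-fold. Clusters led by genes that go against their name, or with a median UMI count under 1 in 3 of their library's, were left out of values within a class. Text names the 15 highest and 15 lowest differences among genes of at least 30 CPM with a symbol, the 5 highest and 5 lowest without one, and, from each gene list, the highest, the lowest and the most abundant member and any the sentence turns on, plus CFTR and SOX2. Other members given, and genes at the head of clusters, were picked after their values were seen. The members and lists were chosen with earlier results of these data known, and counts over them support nothing by themselves. The scripts were tested on simulated data. Alternatives covered scaling with edgeR 4.0.16 and DESeq2 1.42.0 factors, the pseudocount, filters, cell weights, cell sets, thinning and the fold. Python 3.11.15, numpy 2.4.6, pandas 2.3.3, scipy 1.17.1, matplotlib 3.10.9 and R 4.3.3 were used. A few genes that the rule names are not reported here. The gene table of the assembly gave biotypes and spans.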

Additional observations from a re-analysis of the deposited data

Results flagged for a closer look

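LTB went in opposite directions in the genotypes, with a log2 difference of -2.23 in WT and 1.5 in CF, day 9 minus day 7. LOC123388620, annotated as a ribosomal RNA gene, did so too, at 2.87 in WT and -1.21 in CF. Among WT cells LTB also differed by SOX2 level, at 1.20 in SOX2-low and -2.90 in SOX2-high clusters. The genotypes were set side by side for named genes with a mean of at least 10 CPM in each and at least 1.5-fold either way, and the SOX2 sets likewise at 2-fold. NR4A1 also moved in opposite directions in the genotypes, by 1.26 in WT and -0.80 in CF, but from a CF level of 2.13 and 0.800 CPM, under that minimum. Each side is 1 library or a set of cells from it, and the differences between the groups were not tested. Beside the LTB values stands cluster 14, a SOX2-high cluster that held 75.1% of WT LTB UMIs on day 7 and whose cells went from 579 to 29. Over the 19 clusters with at least 20 cells on each day LTB was at least 2-fold lower in 9 and lower in 13, with a median difference of -0.84, and stood at 558 and 580 CPM within cluster 14. Copies of a ribosomal RNA gene can share reads, so the value of LOC123388620 is uncertain.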

How the results depend on the processing

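No paired analysis was possible because each genotype and day has 1 library. Against 107 genes called higher and 34 lower, scaling by TMM and DESeq2 factors gave 98 and 37, and 105 and 35, and every barcode within the filter gave 104 and 34. Counts beyond 1.5 times came from a pseudocount of 5 CPM (70 and 19), genes of at least 1 CPM (169 and 130) or with any UMI (170 and 138), cells of at most 10% mitochondrial UMIs (184 and 62), SOX2-low clusters alone (230 and 95) and a fold of 1.5 (462 and 228). With classes held at their day 7 shares 14 genes were lower, and with clusters held so 49 were higher and 1 lower. Of the 40 genes named by the size of their difference, 36 were past the call as reported and 16 with clusters held. Called list members numbered 41 as reported, 64 at most 10% mitochondrial UMIs, 15 with clusters held and 90 in SOX2-low clusters. They numbered 84 and 86 with the lower filters, which let in more members. Signs turned for CENPF (0.34 with classes held, resting on 1 proliferating ductal cell on day 9), UPK3BL2 (0.62) and RRM2 (0.07) with clusters held, and LTB (1.20) and FMO2 (-0.18) in SOX2-low clusters. The ductal share difference of -11.0 points was -25.3 at most 10% mitochondrial UMIs, -2.46 in SOX2-low and -14.5 in SOX2-high clusters. The centroacinar difference of 26.7 was 19.9, 6.94 and 34.5. The progenitor difference of -14.2 was -8.40 over kept clusters, -19.5 in SOX2-high clusters and 7.15 at most 10% mitochondrial UMIs, the other direction. Why these values moved was not tested, beyond the weighting's own use of fewer cells. The weighting by cluster leaves out cluster 31, where RRM2 was highest on day 7 among clusters of at least 50 cells. Within a class, use of every deposited cluster was chosen after seeing the data and kept the 6 counts within 1.5 times. With 1 library a side, differences between cultures, pools of animals and days cannot be told apart.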
